A study of Mus musculus with 27 samples.

Results

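WDR43 is a protein of the nucleolus that was lowered with a short hairpin RNA in mouse embryonic stem (ES) cells, and the poly(A) RNA of these cells is described here gene by gene. The 4 RNA-seq libraries belong to a series of 27 samples whose other samples are mostly chromatin profiles of WDR43 and RNA polymerase II. Of the 4, 2 carry a control hairpin (shCtl) and 2 a hairpin against WDR43 (shWDR43), and the file's header calls the 2 columns of each group biological replicates. All 4 are labelled wild type, so the hairpin is the difference the labels name; the cells grew in serum medium with leukaemia inhibitory factor (LIF). The cell line, the hairpin sequences, the time after knockdown, and whether the cells were clones or pools are stated in none of the labels, and the group has 1 hairpin label, so effects of WDR43 loss and of that hairpin on other transcripts cannot be told apart. Genes were taken as the rows of the deposited table that carry an identifier and average at least 1 FPKM (fragments scaled to transcript length and to the mapped fragments of the library) over the 4 libraries. This left 12452 of 38582 rows (32.3%), and no difference between the groups entered the choice. A weakly expressed gene could still pass through the group in which it was high.

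WDR43 belongs to UtpA, a subcomplex of the small-subunit processome, the large particle that assembles on the nascent ribosomal RNA precursor and starts its folding and cleavage into the small ribosomal subunit. ES cells divide fast with a short G1 phase, make ribosomes at a high rate, rely on glycolysis, and hold p53, the stress-responsive transcription factor, under the control of the ubiquitin ligase Mdm2. When ribosome assembly fails, free ribosomal proteins can bind Mdm2 and stabilise p53, a route known as nucleolar stress.

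The deposited values were scaled by the authors with spike-in RNA, so a total may differ between groups. The FPKM sum was 1015232 and 1040749 in the shCtl libraries and 687051 and 681178 in the shWDR43 libraries, and the median tested gene stood at 9.2 and 8.9 FPKM against 7.3 and 6.7. Both sums and both medians were lower in the shWDR43 libraries, with no overlap. Over the rows of coding genes the group mean was 38.7% lower, whereas 4 unnamed loci that hold 40.3% to 48.8% of all FPKM were 25.4% lower together. In bulk RNA, fewer cells and less RNA per cell cannot be told apart, and the spike-in rows themselves are not in the table used here. Each gene was therefore measured on the deposited scale and again after each library was centred on its own median; the library median fell by 0.33 on the log2 scale between the groups, so each centred change is higher by that amount. Changes below are shWDR43 minus shCtl in log2(FPKM + 1), on the deposited scale unless named as centred, with the standard error (SE) and the Benjamini-Hochberg adjusted p of limma over all 12452 genes (threshold 0.05).

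On the deposited scale 5322 genes fell (42.7%) and 760 rose (6.10%), with a median change of -0.39. After centring 2606 fell (20.9%) and 1615 rose (13.0%), with a median of -0.06. Every gene that fell after centring had also fallen on the deposited scale, and all 760 deposited rises were rises after centring as well. The remaining calls moved with the scale: 2716 genes fell on the deposited scale alone, and 855 rose only after centring. With values multiplied to equal library totals the split was 977 falls against 2085 rises, and with equal totals over coding rows, a scaling added after the data were seen, 866 against 3194. Both shWDR43 libraries lay below both shCtl libraries for 7918 genes (63.6%) and above them for 1571 (12.6%), and the groups overlapped for 2963 (23.8%). The median absolute log2 difference between replicates was 0.17 for shCtl and 0.18 for shWDR43, against a median absolute change of 0.48 between groups. Changes of at least 2-fold on the log2(FPKM + 1) scale were mostly falls on the deposited scale (1162 against 243 rises) and mostly rises after centring (544 against 294 falls). With 2 libraries a group, leaving out any 1 of the 4 libraries took the deposited count of called genes to 0 in both directions, while the centred counts stayed at 1750 to 2357 falls and 1022 to 1498 rises.

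The change followed the expression level. In 5 equal bins of mean FPKM, from the weakest (up to 2.525 FPKM) to the strongest (above 27.2 FPKM), the median change was -0.15, -0.24, -0.36, -0.49 and -0.71. The share of genes that fell rose along the same bins from 13.6% to 78.4%, and the share that rose went from 7.19% to 2.81%. The added 1 FPKM damps changes of weak genes, yet with a pseudocount of 0.1 the medians still ran from -0.23 to -0.72. Centring moved all bins by the same amount and left the gradient: 52.6% of the strongest genes fell after centring against 4.01% of the weakest. The gene lists below are set against all genes and were not matched for expression level. Gene length mattered less. The shortest loci (median 2.72 kb) had a median change of -0.43 and the longest (median 93.6 kb) -0.31. On the autosomes and X the medians lay between -0.51 (chromosome 14) and -0.35 (chromosome 4); the 4 tested genes of Y had -0.24, and the mitochondrial rows are given with energy metabolism.

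**Figure D1:**
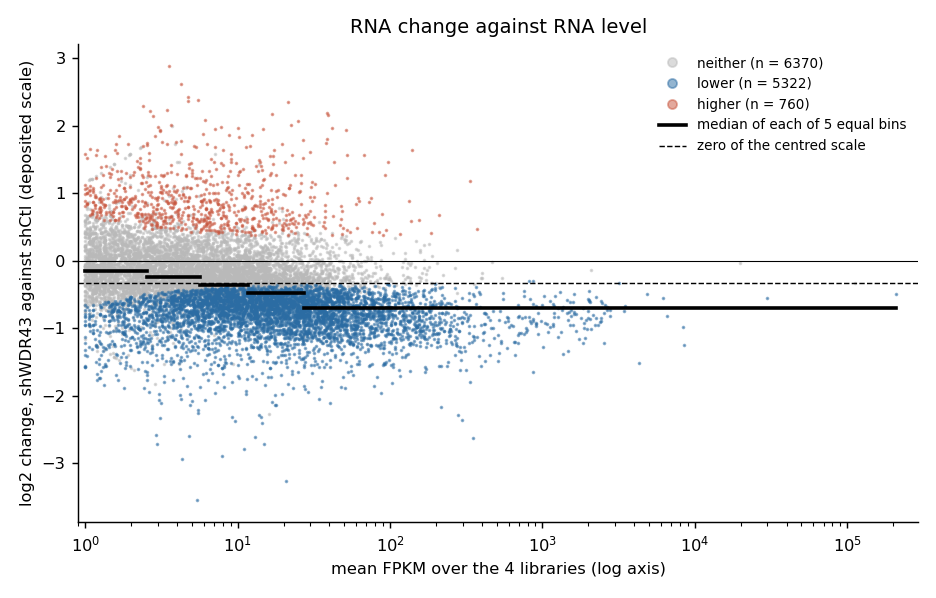
Change in log2(FPKM + 1) of each tested gene on the deposited scale, shWDR43 minus shCtl, against its mean FPKM over the 4 libraries (log axis); blue genes fell, red genes rose, grey genes did neither, black bars are the medians of 5 equal expression bins, and the dashed line is the zero of the centred scale. The bin medians descend from -0.15 among the weakest genes to -0.71 among the strongest.

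The targeted transcript was lower in both knockdown libraries. Wdr43 had 82.3 and 78.2 FPKM in the shCtl libraries and 21.2 and 20.7 in the shWDR43 libraries, a change of -1.89 ± 0.12 (SE; limma adjusted p = 0.000751). The groups were far apart and the replicates of each were close, and the centred change was -1.56. The other 5 UtpA genes fell less. Wdr75 went from 102.1 and 76.6 FPKM to 47.7 and 33.3 (-1.13), and Heatr1 from 58.5 and 49.3 to 32.1 and 26.9 (-0.85). Cirh1a (-0.82) and Utp15 (-0.74) also fell on both scales, and Nol11 (-0.51) on the deposited scale only. All 6 UtpA genes therefore fell on the deposited scale, with a median of -0.84 against -0.39 for all genes. After scaling the libraries to equal coding totals the UtpA median was -0.14, where that of all genes was 0.20.

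The ES identity of the libraries was checked with 3 core factors. Pou5f1, the transcription factor that defines the pluripotent state, was at 1038 and 1057 FPKM in controls and at 554 and 459 after knockdown (-1.05). Sox2, its partner, stood at 213 and 226 against 151 in both knockdown libraries (-0.54; neither after centring). Nanog stood at 162.5 and 142.2 against 126.1 and 115.3 (-0.33; limma adjusted p = 0.0652), and it did not pass on either scale; with equal coding totals it stood at 0.37 and passed as higher (limma adjusted p = 0.0285). All 3 remained far above the median gene in every library, with the knockdown libraries lower. Of 35 core and naive pluripotency genes 29 fell (20 after centring, with 1 rise), at a median of -0.80. Of 18 primed and formative epiblast genes 16 fell and 1 rose (13 and 1 after centring), at a median of -1.11. The median was -0.39 for all genes and -0.71 in the strongest expression bin. With equal coding totals the 2 list medians were -0.14 and -0.53, where all genes had 0.20.

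Glycolysis held some of the largest falls. Of 23 tested genes of glycolysis and lactate handling, 18 fell on the deposited scale and 17 after centring; none rose on the deposited scale and 2 did after centring. The median was -1.29 against -0.39 for all genes, and it stayed below 0 under each scaling tried, reaching -0.58 with equal coding totals. Ldha, the enzyme that turns pyruvate into lactate (NM_010699, chr7:54101174-54110997, mm9), had 475.3 and 523.7 FPKM in the control libraries and 102.1 and 90.7 in the knockdown libraries, a change of -2.36 ± 0.12 (limma adjusted p = 0.000717). Slc16a3, the carrier that exports lactate from the cell (NM_030696, chr11:120809798-120820314, mm9), had 20.5 and 25.5 FPKM against 2.8 and 3.0, a change of -2.61 ± 0.15 (limma adjusted p = 0.000717). In both genes the knockdown libraries were low, close to each other and clear of the controls, and the group means differed 5.18-fold for Ldha and 7.93-fold for Slc16a3.

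The 150 bases before the start of each of these genes are printed to show the sequence just ahead of the RNA of the lactate pair. They are RefSeq sequences of GRCm38.p6, for Ldha the first of 2 listed starts (Ldha chr7:46845654-46845803 and Slc16a3 chr11:120948917-120949066, both on the plus strand). Capitals mark the E-box CACGTG, which Myc and related factors read, and the cyclic AMP response element TGACGTCA. The Ldha stretch holds the E-box at 2 places and the response element near the start site, and the Slc16a3 stretch holds neither. The 150 bases before the second listed Ldha start hold neither as well, and which start these cells use was not tested.
Ldha: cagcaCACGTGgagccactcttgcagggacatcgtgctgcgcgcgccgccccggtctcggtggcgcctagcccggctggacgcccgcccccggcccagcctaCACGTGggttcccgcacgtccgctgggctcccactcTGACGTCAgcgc
Slc16a3: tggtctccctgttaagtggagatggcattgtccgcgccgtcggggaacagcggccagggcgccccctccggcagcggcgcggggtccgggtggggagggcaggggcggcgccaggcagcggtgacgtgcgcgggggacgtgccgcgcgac
Both stretches lie in promoters rich in CpG, with an observed to expected ratio of 0.88 for Ldha and 0.93 for Slc16a3 over the promoter.

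Further enzymes of the pathway were named after their values were seen, so that each step is shown. Hk2, the hexokinase that traps glucose, went from 49.5 and 48.5 FPKM to 19.6 and 18.0 (-1.34), whereas the isoform Hk1 did not pass (-0.30). Of the phosphofructokinases, Pfkp fell from 47.2 and 45.3 FPKM to 10.3 and 12.4 (-1.94), Pfkl (-1.30) and Pfkm (-1.11). In the lower pathway Tpi1 fell from 132.8 and 145.5 FPKM to 34.8 and 34.9 (-1.97), with Pgk1 (-1.60), Aldoa (-1.56), Pgam1 (-1.42), Pkm (-1.29), Eno1 (-1.19) and Gapdh (-0.91) falling on both scales. Slc16a1, another lactate carrier (-1.54), and Pdk1, the kinase that shuts pyruvate out of the mitochondrial cycle (-1.46), fell too. The glucose carriers stood apart. Slc2a1 did not pass (-0.19), and Slc2a3 went from 155.7 and 151.4 FPKM to 182.2 and 179.6, both knockdown libraries higher, at 0.24 on the deposited scale (neither) and 0.57 after centring (a rise). Ldhb, which favours the reverse reaction from lactate to pyruvate, showed the same pattern at 119.7 and 120.4 FPKM against 131.6 and 129.1 (0.12; centred 0.45, a rise). Summed over the list, glycolytic RNA was 7271 and 7749 FPKM in shCtl and 3649 and 3381 in shWDR43.

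**Figure D2:**
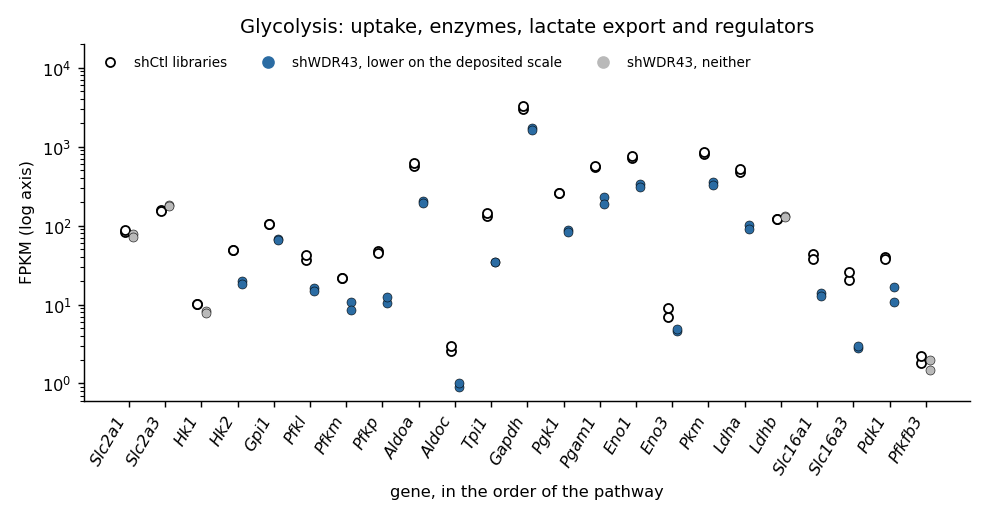
FPKM (log axis) of the 23 tested genes of glycolysis and lactate handling in the order of the pathway, with shCtl libraries as open points and shWDR43 libraries as filled points, blue where the gene fell on the deposited scale and grey where it was called neither way. Ldha, Slc16a3 and Tpi1 lie far lower in both shWDR43 libraries, while Ldhb and Slc2a3 lie slightly higher.

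Neighbouring metabolism was lower as well. In serine and one-carbon metabolism, which builds nucleotides and glycine, 14 of 17 genes fell on the deposited scale and 13 after centring, with none rising and a median of -1.22. Mthfd1l, a mitochondrial folate enzyme, fell from 28.7 and 30.9 FPKM to 8.9 and 8.2 (-1.69), Gldc, which cleaves glycine, from 35.2 and 34.7 to 11.2 and 10 (-1.63), and Psat1, the aminotransferase of serine synthesis, from 93.3 and 87.0 to 32.3 and 28.9 (-1.53). The cytosolic Mthfd1 (-0.26) and the glycine-cleavage gene Amt (-0.42) did not pass. Of 80 nuclear genes of oxidative phosphorylation 69 fell (46 after centring, with 1 rise), at a median of -0.71. The strongest expression bin had the same median. In that bin 78.4% of genes fell (52.6% after centring), against 86.25% (57.5%) of this list. Among 9 tested rows of the mitochondrial genome 7 fell on both scales, at a median of -0.99; these rows lie on 1 compact chromosome and may share reads. Among amino acid carriers 10 of 16 fell (7 after centring, with 2 rises), led by the cationic carrier Slc7a3 (78.0 and 73.0 FPKM against 22.9 and 21.3; -1.73) and the leucine carrier Slc7a5 (-1.22). In the hypoxia list 11 of 16 fell, and after centring 4 (25.0%), near the 20.9% of all genes, with Bnip3, a mitophagy receptor, the lowest (-1.59); its median of -0.58 moved to 0.02 with equal coding totals. Genes of the antioxidant response split: 18 of 27 fell and 3 rose (12 and 4 after centring), with glutathione reductase Gsr (-1.52) and transketolase Tkt (-1.47) lower, and the secreted peroxidase Gpx3 (2.19), the haem oxygenase Hmox1 (0.84) and Nqo1 (0.49) higher. The antioxidant median of -0.64 became 0.07 with equal coding totals.

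The machinery that makes, folds and degrades protein fell nearly throughout on the deposited scale. Of 53 initiation factors 46 fell and none rose (35 after centring), at a median of -0.83. Eif1ax, which helps scan for the start codon, went from 167.8 and 181.7 FPKM to 66.4 and 61.9 (-1.43), whereas Eif4g2, a factor of cap-independent initiation, did not pass (-0.11). Of 11 elongation and release factors 9 fell (8 after centring) with a median of -1.01; Eef2, the translocase of the ribosome, was an exception (-0.25, neither), and Eef1a1, among the 10 highest genes of the table, fell on the deposited scale only (-0.49; centred -0.16). Of 20 cytosolic aminoacyl-tRNA synthetases 19 fell and 18 after centring, at a median of -0.995. Vars, for valine, stood at 63.0 and 66.8 FPKM against 27.3 and 25.5 (-1.27), and Farsb (-1.17) and Yars (-1.15) followed, while Cars, for cysteine, did not pass (-0.19). All 8 genes of the CCT chaperonin, the ring that folds actin and tubulin, fell on both scales, from Cct6a (403.1 and 362.9 FPKM against 183.6 and 141.1; -1.24) to Cct4 (-0.76). Of 46 proteasome genes 41 fell and 1 rose (29 and 1 after centring), at a median of -0.83; the rise was Psmb9, an immunoproteasome subunit, from 0.4 and 0.8 FPKM to 1.7 and 1.6 (0.74). Of 76 mitochondrial ribosomal proteins 66 fell (39 after centring) at a median of -0.71. All 6 of these lists had a median below the -0.39 of all genes. The strongest of the 5 expression bins, however, had a median of -0.71, with 78.4% of its genes lower (52.6% after centring). Mitochondrial ribosomal proteins lay near that bin, with the same median and 51.3% lower after centring. With equal coding totals the 6 list medians were -0.03 to -0.31, where all genes had 0.20.

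Stress and degradation genes were more mixed. Among 20 heat shock genes 14 fell and 1 rose (11 and 4 after centring), with the mitochondrial chaperonin Hspd1 lowest (-1.40) and the small heat shock protein Hspb8 highest (2.5 and 2.0 FPKM against 6.8 and 8.0; 1.37). Their median of -0.67 became 0.03 with equal coding totals. Of 20 genes of the unfolded protein response of the endoplasmic reticulum 10 fell (50%, near the 42.7% of all genes) and none rose on the deposited scale, with the transcription factor Xbp1 the lowest (-1.17). After centring 4 fell (20%, against 20.9% of all genes) and 2 rose, and that list's median of -0.35 turned to 0.20 with equal totals and 0.31 with equal coding totals. Lysosome and autophagy genes departed from the general fall, with 9 of 33 falling and 6 rising on the deposited scale and 3 and 12 after centring. Their median was -0.03, and it was above 0 on every other scaling. The protease Ctsd rose from 95.8 and 91.8 FPKM to 177.9 and 170.3 (0.89), the glycogen-digesting Gaa by 1.12 and the membrane protein Lamp2 from 12.7 and 11.8 to 21.4 and 20.7 (0.74), with no overlap of groups in any of the 3. Tfeb, a transcription factor of lysosomal genes, moved the other way, from 6.0 and 5.9 FPKM to 1.8 and 1.9 (-1.29).

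RNA processing followed the falls. Of 48 splicing genes 44 fell (37 after centring) and none rose, at a median of -0.93. The core snRNP protein Snrpe went from 718.9 and 761.9 FPKM to 327.0 and 252.9 (-1.36), and Snrpa1 (-1.34) and Snrpf (-1.28) were next, while Prpf8, the large protein of the spliceosome's centre, did not pass (-0.27). Of 55 genes of the nuclear pore and transport 46 fell (28 after centring) at a median of -0.73, with Rcc1, the exchange factor of the transport GTPase Ran, lowest (63.5 and 63.4 FPKM against 24.4 and 21.7; -1.42). Of 32 exosome and decay genes 23 fell (13 after centring), led by the exosome subunit Exosc4 (-1.28). That list's median of -0.59 was 0.08 with equal coding totals. Mediator and the elongation kinase P-TEFb with its 7SK inhibitors had 13 of 32 (40.6%) and 14 of 23 (60.9%) genes lower against 42.7% of all genes, and 3 each after centring, below the share of all genes. Both medians were above 0 with equal totals (0.15 and 0.05). Of 11 host genes of small nucleolar RNAs 7 fell and none rose on the deposited scale. Gas5 went from 39.8 and 36.1 FPKM to 17.4 and 18.1 (-1.05). Rmrp, the RNA of the RNase MRP complex that cuts the ribosomal RNA precursor, went from 192.9 and 213.2 FPKM to 483.9 and 440.0 (1.18 ± 0.12; limma adjusted p = 0.00111). Rmrp is short and has no regular poly(A) tail, so its FPKM in a poly(A) library is uncertain.

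**Figure D3:**
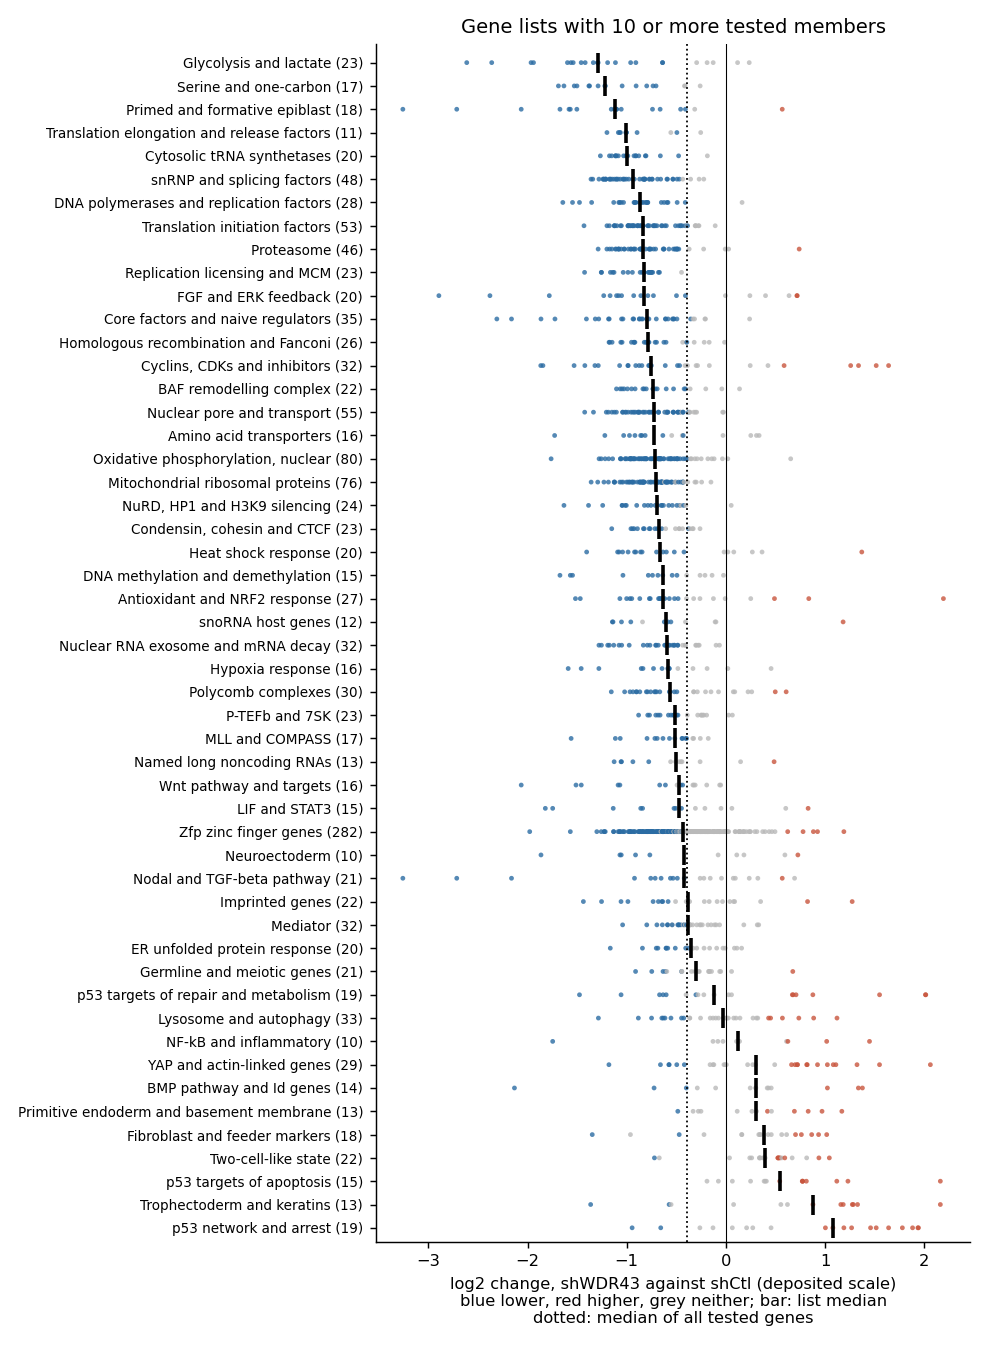
Change in log2(FPKM + 1) on the deposited scale of each member (points: blue fell, red rose, grey neither) of the lists with 10 or more tested genes, with the list median as a bar and the median of all tested genes (-0.39) as a dotted line; numbers in brackets are tested members. The glycolysis and serine medians lie farthest to the left, and those of the p53 arrest list and the trophectoderm and keratin list farthest to the right.

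Most replication genes fell, and cyclins and their regulators went both ways. All but 1 of 23 replication licensing genes fell on the deposited scale (22, and 20 after centring), at a median of -0.82. Gmnn, the licensing inhibitor geminin, went from 88.4 and 89.7 FPKM to 35.6 and 29.7 (-1.43), Mcm10 (-1.26) and Cdc6 (-1.25) came next, and Orc4 did not pass (-0.45). Of 28 replication factors 27 fell (21 after centring) at a median of -0.87, with thymidine kinase Tk1 (-1.65), Uhrf1, which brings DNA methylation to new strands (-1.55), and the sliding clamp Pcna (440.7 and 413.4 FPKM against 172.7 and 135; -1.48) lowest. Pold4 did not pass (0.16). Of 26 genes of homologous recombination 20 fell (13 after centring) at a median of -0.79, and of 23 cohesin and condensin genes 14 fell (8 after centring) at a median of -0.67; the latter median was 0.02 with equal coding totals. Of 32 cyclins, kinases and their regulators 20 fell and 5 rose (13 and 7 after centring). Ccne1, the cyclin that drives entry into S phase, went from 71.6 and 79.0 FPKM to 22.2 and 17.8 (-1.87), and E2f8 (-1.85) and E2f4 (-1.53), E2F factors known as repressors, fell too. The retinoblastoma gene Rb1, which restrains E2F factors, rose from 8.2 and 7.2 FPKM to 24.1 and 18.2 (1.34). Knockdown libraries were the low pair for Ccne1, E2f8 and E2f4 and the high pair for Rb1, with no overlap.

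Targets of p53 rose against the general fall, most of all those of arrest. A p53 list was already known to be high in these libraries when the genes below were grouped by role, so its direction is not independent evidence. In the network and arrest list 11 of 19 rose and 2 fell on the deposited scale (15 and 2 after centring), with a median of 1.08. Cdkn1a, the kinase inhibitor p21, had 12.9 and 14 FPKM in controls and 39.7 and 40.9 after knockdown (1.52), and Ccng1 at 77.3 and 57.6 against 219.7 and 201.2 (1.64). Btg2, an antiproliferative cofactor of mRNA decay, stood at 11.7 and 11.5 against 45.8 and 39.0 (1.78). Plk2, a kinase of the centrosome, stood at 23.6 and 17.5 against 90.8 and 72.2 (1.94). In each of these the knockdown pair lay more than 2-fold above the controls. Plcd4 (0.6 and 0.8 FPKM against 5.7 and 5.3) and the p53 relative Trp73 (2.0 and 1.9 against 10.6 and 9.2) rose from low levels. Mdm2, the ligase that is both a target and the inhibitor of p53, rose from 53.2 and 49.7 FPKM to 158.5 and 129.2 (1.46), while its relative Mdm4 did not pass (-0.13). Trp53 itself, the gene of p53, fell from 217.1 and 228.3 FPKM to 147.7 and 134.2 (-0.66) on both scales but stood at 0.05, uncalled, with equal coding totals. Gadd45a, a target in other settings, fell (-0.95).

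Apoptosis targets had a smaller median than those of arrest. None of 15 fell, 8 rose on the deposited scale and 12 after centring, at a median of 0.54. Perp, a protein of cell contacts and p53-dependent death, was highest, from 15.1 and 12.2 FPKM to 74.7 and 55.3 (2.16), followed by Phlda3, an inhibitor of Akt (28.2 and 33.6 against 74.1 and 73.1; 1.23), and the death receptor Fas (0.5 and 0.4 against 2.0 and 2.3; 1.12). Apaf1 (0.78), Tnfrsf10b (0.81), Lrdd (0.77), Trp53i11 (0.77) and Eda2r (0.54) rose as well. The BH3-only killers Bbc3 (10.5 against 13.8 FPKM on average; 0.39) and Pmaip1 (22.9 against 31.5; 0.41) passed only after centring, with Aen (0.25) and Zmat3 (0.40). Bax, the pore-forming effector, did not pass on either scale (182 ± 20.3 against 159 ± 10.7 FPKM, mean ± SD, n = 2 each; -0.19), nor did Siva1 (-0.08) or Dapk1 (0.06). Targets of repair and metabolism were divided: 7 of 19 rose and 6 fell (8 and 3 after centring). Dcxr, a sugar reductase (8.0 and 8.6 FPKM against 36.2 and 37.0; 2.02), the peptide transporter Tap1 (0.4 and 1.4 against 6.6 and 6.2; 2.01) and the epoxide hydrolase Ephx1 (8.0 and 8.3 against 24.0 and 27.7; 1.55) rose, and Pcna, the glutaminase Gls2 (-1.06) and the peroxidase Gpx1 (-0.67) fell. Gpx1 changed sign when coding totals were set equal in place of centring (0.04).

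The 15 largest centred rises among genes averaging at least 10 FPKM included 4 of these p53 targets (Perp, Dcxr, Plk2 and Btg2), and the others came from diverse functions. Rtkn had 6.0 and 6.6 FPKM in controls and 41.1 and 32.0 after knockdown (2.35 ± 0.16; limma adjusted p = 0.000802). Gpx3 stood at 13.0 and 13.4 against 69.7 and 58.7 (2.19), and the kelch protein gene Klhl26 at 5.4 and 5.5 against 29.0 and 27.4 (2.18). In all 3 the knockdown libraries were high together. Man2b1, a lysosomal mannosidase (1.97), Cryab, a small heat shock protein (1.83), and Crip2, a LIM protein (1.80), had close replicates too. Thbs1, a matrix glycoprotein, was less even, with 11.3 and 22.2 FPKM in shWDR43 against 3.1 and 3.6 (1.96 ± 0.28). Prl2c3 (1.86) belongs to a family of near-identical genes, so its share of reads is uncertain.

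**Figure D4:**
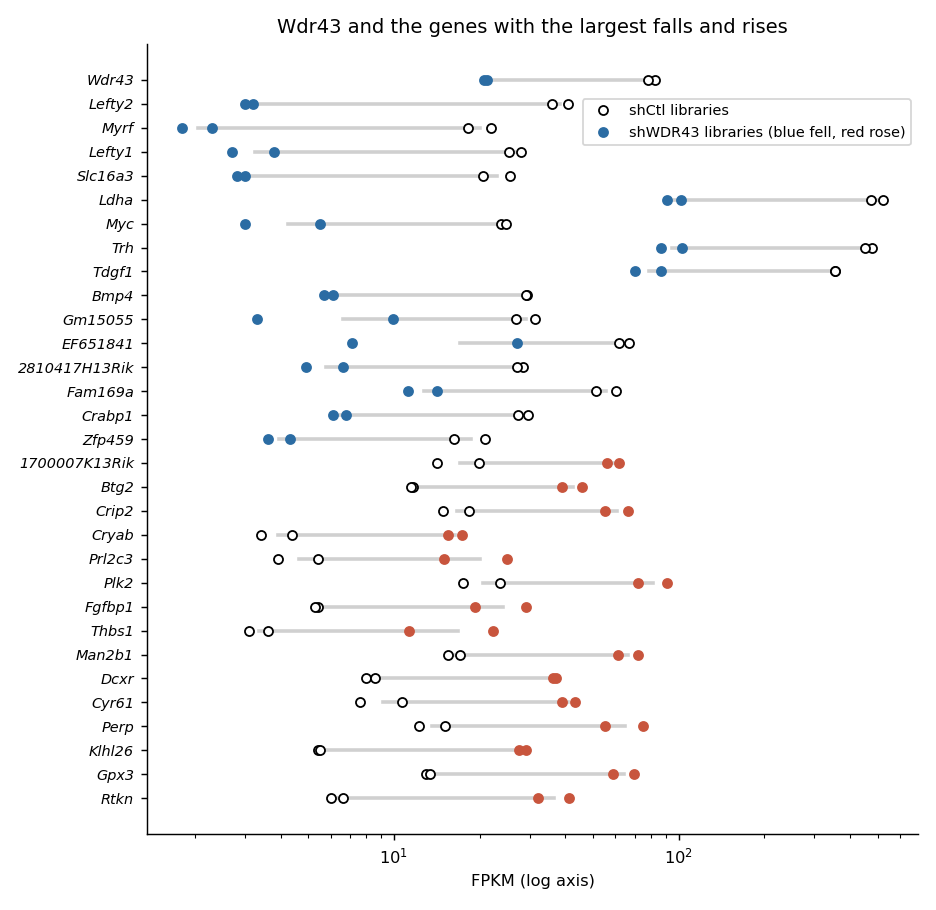
FPKM (log axis) in each library for Wdr43 and for the genes with the 15 strongest falls and 15 strongest rises at a mean of 10 FPKM or more; open points are shCtl libraries, filled points shWDR43 libraries (blue fell, red rose), and grey lines join the group means. Both shWDR43 points lie outside the shCtl pair for each gene, and EF651841 and Gm15055 show the widest spread between shWDR43 replicates.

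The 15 largest falls were of mixed kinds, among them genes of Nodal signalling. Myrf, a transcription factor known from myelin-forming cells, went from 18.2 and 21.9 FPKM to 2.3 and 1.8 (-2.79), Trh, the precursor of thyrotropin-releasing hormone, from 476.6 and 449.6 to 102.6 and 86.4 (-2.29), and Crabp1, a retinoic acid carrier, from 27.3 and 29.6 to 6.1 and 6.8 (-1.98). The knockdown pair was low and clear of the controls in each. Lefty2 and Lefty1, secreted inhibitors of Nodal, went from 35.9 and 40.7 FPKM to 3.2 and 3.0 (-3.26) and from 25.4 and 28.0 to 3.8 and 2.7 (-2.71). Tdgf1, the co-receptor of Nodal, fell from 353.6 and 353.7 FPKM to 87.0 and 70.3 (-2.16), and Smad7, an intracellular inhibitor of the pathway, fell less (-0.92). Nodal itself, the ligand, went the other way, from 29.4 and 29.5 FPKM to 44.6 and 43.7 (0.57; centred 0.90), a rise on both scales with tight replicates. Over the whole Nodal and TGF-beta list 11 of 21 fell and 1 rose (4 and 3 after centring), and the median of -0.42 turned to 0.13 with equal totals.

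Other signalling pathways showed lower ligands or targets beside uncalled or higher partners. In the BMP pathway the ligand Bmp4 fell from 29.4 and 29.1 FPKM to 6.1 and 5.7 (-2.13) and the receptor Bmpr1a by 0.72 (deposited scale only), while Bmp7 (0.5 and 1.2 against 4.3 and 3.2; 1.38), the antagonist Grem1 (1.34) and Id2, a target that blocks differentiation factors (1.02), rose. Id1 (0.42) and Id3 (0.30) passed only after centring, and over 14 genes 3 fell and 3 rose (1 and 8 after centring). In the FGF and ERK list 14 of 20 fell and 2 rose (11 and 4 after centring) at a median of -0.82. Its lowest members were the ligands Fgf15 (12.9 and 16.4 FPKM against 1.3 and 0.9; -2.90) and Fgf17 (-2.38) and the feedback inhibitor Spry4 (52.8 and 59.2 against 17.9 and 13.5; -1.78), and its highest Phlda1 and Fosl1 (0.72 each). In the LIF and STAT3 list 8 of 15 fell (53.3%) and 1 rose (6.67%), against 42.7% and 6.10% of all genes. After centring 5 fell (33.3%) and 2 rose (13.3%), against 20.9% and 13.0%. The feedback inhibitor Socs2 fell from 37.1 and 30.3 FPKM to 10.1 and 7.6 (-1.82) and Bcl3 from 18.0 and 18.6 to 4.9 and 4.6 (-1.75), Stat3 did not pass (-0.21), and Lif itself rose from 1.4 and 1.1 to 3.3 and 2.7 (0.83). The median of the LIF list was -0.47, and 0.07 with equal totals. Of 16 Wnt genes 9 fell (5 after centring), led by the nuclear effector Lef1 (5.0 and 6.0 FPKM against 0.6 and 0.5; -2.06), the receptor Lgr4 (-1.51) and the feedback inhibitor Notum (-1.46). Falls made up 56.25% of the Wnt list (31.25% after centring), against 42.7% (20.9%) of all genes. The Wnt median of -0.47 became 0.05 with equal coding totals. Myc, a target shared by several of these pathways, fell from 23.8 and 24.8 FPKM to 5.5 and 3.0 (-2.31).

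Genes linked to YAP, the effector of the Hippo pathway, and to actin rose more often than they fell. Of 29 tested 13 rose and 6 fell (18 and 2 after centring), at a median of 0.30. Cyr61, a matricellular protein and standard target of YAP and of serum response (NM_010516, chr3:145309935-145312949, mm9), had 7.6 and 10.7 FPKM in controls and 43.1 and 38.8 after knockdown (2.06 ± 0.18; limma adjusted p = 0.00102). Its relative Ctgf stood at 7.9 and 7.8 against 26.5 and 23.4 (1.55), and Tagln, an actin-binding protein, at 2.7 and 3.1 against 8.3 and 9.2 (1.32). In each the knockdown pair was high and clear of the controls. Tead2, a DNA-binding partner of YAP, fell (-1.18), and cytoplasmic actins Actb (-0.66) and Actg1 (-0.58) fell on the deposited scale, Actb also after centring; with equal coding totals Actb stood at 0.05. A small inflammatory list of 10 tested genes held 3 rises and 1 fall, with the prostaglandin synthase Ptgs2 (1.45), Tnfrsf12a (1.02) and Nfkb2 (0.63) higher and Bcl3 lower.

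Fgfbp1, a secreted carrier of FGFs, rose from 5.4 and 5.3 FPKM to 29.0 and 19.2 (1.95 ± 0.20). The 150 bases before its start and before that of Cyr61 are printed to show promoter forms found more often among raised genes when all levels were pooled. They are RefSeq sequences of GRCm38.p6 (Cyr61 chr3:145649986-145650135 and Fgfbp1 chr5:43981800-43981949, both on the minus strand). Capitals mark TATAAA, the TATA box, in its usual place ahead of the start.
Cyr61: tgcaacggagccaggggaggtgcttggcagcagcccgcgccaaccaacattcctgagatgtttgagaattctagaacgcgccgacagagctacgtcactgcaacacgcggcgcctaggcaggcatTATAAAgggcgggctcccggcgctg
Fgfbp1: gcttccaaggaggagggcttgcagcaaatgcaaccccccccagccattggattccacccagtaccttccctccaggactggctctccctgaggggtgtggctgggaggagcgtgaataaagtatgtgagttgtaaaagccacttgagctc
Cyr61 has the TATA box in a CpG-rich promoter (observed to expected ratio 0.82), whereas the Fgfbp1 promoter is poor in CpG (0.19) and holds no TATAAA at that place.

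Promoters were compared over 8745 of 10784 coding genes (81.1%) with a RefSeq promoter of 250 bases before and 50 after the start, against all 32851 promoters of the table. The CpG observed to expected ratio had a median of 0.82 for genes that fell after centring, 0.77 for genes called neither way and 0.70 for genes that rose, and 0.38 for all promoters. The order changed with expression level: in the weakest bin the medians were 0.49, 0.68 and 0.63, and in the strongest 0.85, 0.84 and 0.72. TATAAA, searched on the gene's strand from 45 to 15 bases before the start, was present at 1.42%, 1.04% and 2.99% of these groups and at 2.14% of all promoters. Raised genes held it more often than uncalled genes in each of the 5 expression bins, at 1.97% to 4.51% against 0.51% to 1.54%. Against fallen genes this did not hold in the weakest bin, where the 44 fallen genes had 4.55% and raised genes 3.03%. In the other bins fallen genes held it less often than raised genes, at 0.44% to 1.6%. CCGGAAG, the core read by ETS factors, searched on both strands, was present at 23.3%, 23.0% and 15.4% (all promoters 8.86%). This order did not hold by level: fallen genes held it less often than uncalled genes in every bin, and less often than raised genes in bin 2 (13.6% against 14.8%) and bin 3 (11.5% against 17.5%). CACGTG stood at 14.5%, 12.1% and 12.03% (all 7.15%), TGACTCA, read by AP-1, at 3.69%, 3.68% and 5.72% (all 5.20%), and TGACGTCA at 4.17%, 4.0% and 2.73% (all 1.79%), each on both strands. A match is a description of the sequence and shows no binding.

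On the deposited scale chromatin complexes fell more often than the 42.7% of all genes, while zinc finger and imprinted genes lay near that share. Of 24 genes of NuRD, HP1 and H3K9 silencing 21 fell (11 after centring) at a median of -0.70, with the HP1 gene Cbx3 (200 and 208.1 FPKM against 73.0 and 58.0; -1.63) and the remodeller Hells (-1.39) lowest. Of 22 BAF genes 18 fell (9 and 1 rise after centring), and of 17 MLL and COMPASS genes 13 fell (5 after centring), led by the shared subunit Dpy30 (311.5 and 315.5 FPKM against 108.0 and 103.2; -1.56). Polycomb genes were more mixed, with 18 of 30 falling and 2 rising (11 and 3 after centring); Pcgf6 was lowest (-1.16), and Phc2 (0.61) and Pcgf3 (0.50) rose. With equal totals the MLL and Polycomb medians were 0.05 and 0.01. Among DNA methylation genes 10 of 15 fell (6 after centring). The de novo methyltransferases Dnmt3a (36.6 and 33.5 FPKM against 12.7 and 8.3; -1.67) and Dnmt3b (42.7 and 39.0 against 15.4 and 11.1; -1.57) and Uhrf1 were lowest, while Mbd2 (-0.21), whose protein reads methylated DNA, did not pass. Of 282 zinc finger genes named Zfp, 117 fell (41.5%) and 5 rose, near the 42.7% and below the 6.10% of all genes. Among imprinted genes 9 of 22 fell and 2 rose, with Phlda2, a placental growth inhibitor, lowest (-1.44) and the growth factor Igf2 highest (1.7 and 1.3 FPKM against 4.5 and 5.6; 1.27).

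Markers of other cell types were read to see which cells the libraries held. In the trophectoderm and keratin list 7 of 13 tested genes rose and 2 fell (9 and 1 after centring). Its summed level was 48.8 to 53.7 FPKM in shCtl and 127.7 to 139.7 in shWDR43, of which the p53 target Perp gave 15.1 and 12.2 against 74.7 and 55.3. The defining factors Cdx2 and Elf5 stayed at or below 0.3 FPKM in all 4 libraries, whereas Tfap2c, a factor of trophectoderm and of germ cells, rose from 3.0 and 3.5 to 9.2 and 8.1 (1.18). In the primitive endoderm and basement membrane list 5 of 13 rose and 1 fell (8 and 0 after centring), with the collagens Col4a2 (1.17) and Col4a1 (0.97) highest. The sum was 547.7 and 575.2 FPKM in shCtl and 541.3 and 548.7 in shWDR43, Ttr was at 0, and Afp, Foxa2 and Sox17 reached no more than 0.4. Gata6, a defining factor of primitive endoderm, rose from 0.6 in both controls to 1.9 and 1.3 FPKM (0.69), and Gata4, at 1.2 and 1.0 against 1.6 and 2.2 (0.46), passed only after centring. Sox7 and Pdgfra of the same list were too weak to be tested. Sox7 went from 0.8 and 1.2 FPKM in shCtl to 0.3 and 0.4 in shWDR43, and Pdgfra from 0.6 and 0.4 to 0.9 and 1.2. In the fibroblast list 5 of 18 rose and 2 fell (8 and 1 after centring), and its sum was 344.3 and 371.4 FPKM in shCtl and 352.3 and 478.5 in shWDR43; Dcn, Lum and Fap were at 0 in every library, while S100a4 (0.93) and Timp3 (1.02) rose. Thy1, Mfap5 and Fn1 had the lowest changes of the fibroblast list, in which 4 of 18 changes were below 0. The part of a few feeder or other cells in the YAP, actin and matrix values was not tested. Of 10 tested neuroectoderm genes 5 fell (50%) and 1 rose (10%), near the shares of all genes (4 and 3 after centring), with Dcx and Hes5 at 0, and the median of -0.42 was 0.03 with equal totals. In the list of the 2-cell-like state, a rare ES cell state, 7 of 22 rose and 1 fell (17 and 1 after centring), but its genes lie in families of near-identical copies and their levels are uncertain. Of 17 blood and endothelial markers 3 were tested, and the globins and Ptprc were at 0.

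The peak lists of the series give a readout that the RNA did not use. Peaks of FLAG-tagged WDR43 in cells given the solvent DMSO (31189 peaks) were counted within 1000 bp of either end of a gene's locus. A peak was present at 70.8% of the genes that fell after centring (1846 of 2606), at 65.6% of those called neither way and at 57.5% of those that rose. The order was the same with windows of 0 and 5000 bp, with both other WDR43 lists used (labelled FB and cFB-KI) and with the upper part of the DMSO peaks by score. Expression level moved with it: among the weakest genes the shares were 33.0%, 49.3% and 40.7%, and in the strongest bin 76.9%, 75.6% and 68.2%. Fallen genes also had the lowest share in bin 2 (46.4%, 62.6% and 58.7%) and in bin 3 (60.8%, 72.1% and 63.8%). The pooled order was thus present only in bin 4 (77.2%, 76.3% and 62.1%) and in the strongest bin. Within expression bins the median RNA change lay close with and without a peak, at -0.14 against -0.17 in the weakest and -0.70 against -0.72 in the strongest.

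**Figure D5:**
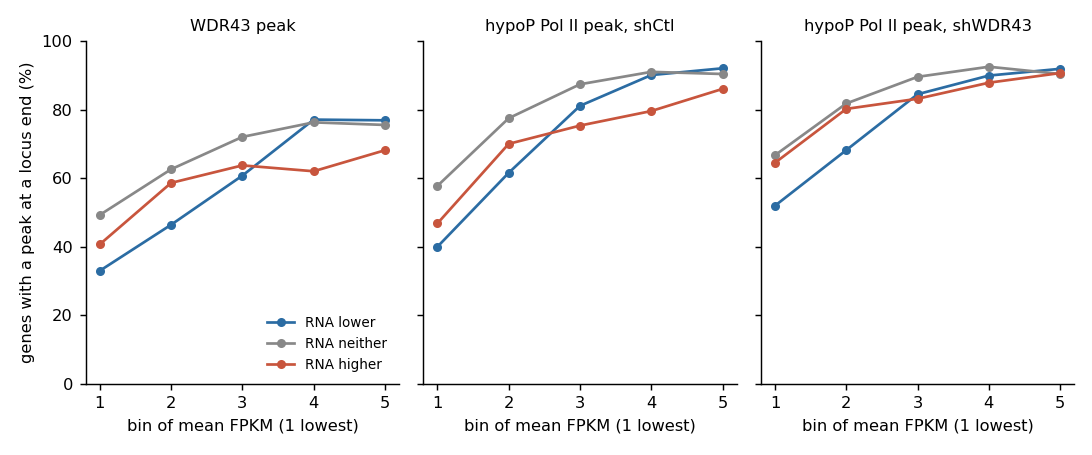
Percent of genes with a peak within 1000 bp of a locus end in each of 5 bins of mean FPKM, for WDR43 peaks and for hypophosphorylated polymerase II (hypoP) peaks in shCtl and shWDR43; lines are genes lower, neither or higher in RNA after centring. Among raised genes hypoP peaks go from 46.8% to 64.5% in the weakest bin and from 86.1% to 90.8% in the strongest between shCtl and shWDR43. Among genes called neither way they go from 57.8% to 66.7% in the weakest bin and stay at 90.5% in the strongest.

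RNA polymerase II was profiled under the same hairpin labels as unphosphorylated (hypoP), serine-5-phosphorylated (Ser5P) and serine-2-phosphorylated (Ser2P) forms, which mark polymerase at initiation, at early elongation and in productive elongation. Peaks found in both libraries of a group were used, and their number differed between groups, so shares move with how much was called. HypoP peaks numbered 17924 in shCtl and 23688 in shWDR43. They lay at 85.8% and then 87.1% of fallen genes, at 79.0% and 82.9% of uncalled genes, and at 69.5% and 79.9% of raised genes. The gain among raised genes was present in every expression bin, from 46.8% to 64.5% in the weakest and from 86.1% to 90.8% in the strongest. It was not particular to them: weaker genes of the other groups gained too, by less. Uncalled genes went from 57.8% to 66.7% in the weakest bin. Fallen genes gained more than uncalled genes in that bin, though less than raised genes. In bin 2 fallen genes went from 61.6% to 68.2%. Fallen genes did not gain in bin 4 (90.17% to 90.02%) or in the strongest bin (92.14% to 91.98%). The strongest bin held 1310 of the 2606 fallen genes, so their pooled gain was small. Gpx3, Dcxr, Thbs1, Fgfbp1 and 1700007K13Rik, all among the 15 largest rises, had a hypoP peak in shWDR43 but not in shCtl. Of the 15 largest falls, Tdgf1 and Fam169a likewise had one in shWDR43 only, and Lefty1 in shCtl only. Ser5P peaks rose in number from 731 to 3800 and were commoner at fallen genes (5.64% to 25.4%) than at raised ones (2.60% to 12.8%) when all levels were pooled. In shWDR43 the raised genes held them more often in the weakest bin (5.82% against 4.0%) and bin 2 (10.7% against 9.0%). Ser2P peaks went from 2901 to 2465; they lay at 30.9% and 26.6% of fallen genes and at 17.8% and 17.4% of raised genes. In shCtl the strongest bin carried that gap (42.6% against 33.5%), while fallen genes held Ser2P peaks less often than raised genes in bins 2, 3 and 4. These shares describe peak lists of 2 libraries a group and carry no test.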

How the data were processed

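Poly(A) RNA of 4 ES cell libraries (2 shCtl, 2 shWDR43) was read from the deposited spike-in RNA-seq table. The authors aligned and quantified with TopHat and Cufflinks on mm9, per the submitters' processing notes; that the deposited values are FPKM was inferred from these tools, how the spike-in scaling was done is not stated there, and with 1 decimal per value the read depth cannot be recovered. The authors' fold change and p-value columns of that deposited table were not used. Peak lists were used as the authors deposited them, with the score column only to rank WDR43 peaks; 1-bp overlap made a consensus of both libraries.

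Log2(FPKM + 1) of 12452 genes was fitted with limma 3.58.1 in R 4.3.3 (lmFit and eBayes with trend, 2 residual degrees of freedom), two-sided, with Benjamini-Hochberg adjustment over all of them, on the deposited values and after subtracting each library's median. The fit was also run on simulated data with as many rises as falls and no shift between the groups. That run therefore cannot speak for the library-wide fall seen here. With 2 libraries a group, p-values measure the spread between these libraries. The 56 gene lists and the genes named were chosen with earlier results of these data known. Named genes were Wdr43, the 15 largest centred rises and falls averaging at least 10 FPKM, the 10 highest genes, the 3 members at each end of each list, all members of lists of up to 15, and 9 reference genes; other members named were chosen after their values were seen. Strand of counting is not given, so overlapping and antisense genes cannot be told apart. Alternatives changed the pseudocount, filter, trend, scaling, replicate block and libraries.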

Additional observations from a re-analysis of the deposited data

How the results depend on the processing

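With no filter on low values the deposited scale gave 2593 falls and 402 rises, and with a mean of at least 5 FPKM it gave 472 rises, from fewer genes tested. Leaving out 1 library gave 0 to 0 falls and rises on the deposited scale (3928 to 4902 falls and 576 to 730 rises at an unadjusted limma p under 0.05), with 1 residual degree of freedom, and all 5322 and 760 calls kept their sign. After centring it gave 1750 to 2357 falls and 1022 to 1498 rises, fewest without shWDR43 replicate 2. Equal totals, used in place of centring, gave 977 falls. Equal coding totals, also in place of centring and added after seeing the data, gave 866 falls and 3194 rises. Under the latter 10 named genes changed sign from the centred fit (Tpt1p 0.0422, Trp53 0.0464, Actb 0.0466, Nanog 0.371, Farsa 0.0341, Srsf5 0.347, Mcm7 0.0324, Gpx1 0.0356, Etv5 0.291 and Apoe 0.373). Of these, Nanog, Srsf5, Etv5 and Apoe passed as higher. Other scalings, pseudocounts and the fit without trend kept the counts within 1.5 times. Deviations of same-numbered libraries were nearly uncorrelated (0.0504 over 12452 genes), which with 2 libraries a group cannot exclude pairing by replicate number. The replicate block gave 5926 falls and 840 rises deposited and 2954 and 1745 centred, each more than without the block.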
